A study of Homo sapiens with 6 samples.

Results

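The MHC class I presentation genes HLA-B, HLA-C, HLA-E, HLA-F, B2M, TAP1, TAP2, TAPBP and NLRC5 were followed across RNA-seq libraries of MOLM-13 cells. They were chosen by gene name, and all 9 were found among the 24878 genes of the deposited table. Other class I loci were not analysed here. MOLM-13 is an established line of human acute myeloid leukaemia with monocytic features (AML-M5). Poly-A RNA was sequenced in 3 groups of 2 libraries. The first group carried the label CaMK2D-KO (KO, knockout) with 3 days of doxycycline (dox), and the second CaMK2D-KO with 5 days. The third was labelled control, with no dox. The KO vector is dox-inducible per the labels, which do not say whether the cells were a clone or a pool. The series title names a control vector for the controls. KO and control libraries therefore differ in vector, dox and possibly time in culture at once, and these cannot be told apart. Whether the libraries within a group derive from separate cultures is not labelled, and p-values then measure only library-to-library spread, which could be technical. CaMK2D is a kinase activated by calcium and calmodulin, and the comparisons address how class I transcripts stood once its knockout was induced and whether 3 and 5 days differed.

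Class I molecules carry peptides from inside the cell to its surface, where CD8 T cells and natural killer (NK) cells inspect them. A polymorphic heavy chain (HLA-B or HLA-C here) or a less variable one (HLA-E, HLA-F) pairs with the invariant light chain B2M. TAP1 and TAP2 form the transporter that moves peptides into the endoplasmic reticulum, and TAPBP (tapasin) bridges the transporter to the empty heavy chain. NLRC5 is the transactivator that acts with RFX, CREB/ATF and NF-Y factors on class I promoters, and interferons raise most of these genes, in part through IRF factors.

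Total counts ranged from 15456770 to 21081298 per library. Of 9 myeloid leukaemia markers, 8 reached 1 CPM (counts scaled to library size by TMM factors) in every library, and the summed level of the list was 975 to 1140 CPM at KO day 3, 999 to 1310 at KO day 5 and 1940 to 2130 in the controls. The largest difference in that list was in FLT3, which averaged 334 CPM at KO day 3, 255 at KO day 5 and 969 in the controls. SPI1, LYZ, CSF1R, ITGAM and CD14 also had lower means in both KO groups. CD33 and KMT2A stayed near their control means, and CEBPA averaged 317, 459 and 329 CPM in the same order. The T and NK cell list summed to 43.3 to 61.9 CPM at KO day 3, 50.1 to 56 at KO day 5 and 83.1 to 123 in the controls. Most of it was NKG7, while CD247, GNLY and KLRD1 of that list stood at or under 0.437 CPM. TRAC, of the same list, had 2.61 and 1.81 CPM at KO day 3, 1.47 and 3.11 at KO day 5 and 11.18 and 5.705 in the controls. The table holds no gene with 0 counts in every library, and it has no row for CD3D, CD3E, MS4A1, HBB, EPCAM, CDH1 or COL1A2. The B cell list summed to 20.4 to 34.6, 21.7 to 22.4 and 26.7 to 35.6 CPM in the same order of groups, most of it PAX5. The epithelial and stromal list summed to 77.4 to 82.4 CPM at KO day 3, 79.8 to 80.1 at KO day 5 and 79.7 to 149 in the controls. The part of these levels in the results was not tested. CAMK2D itself stood at 14.7 and 15.6 CPM at KO day 3, 28.98 and 28.1 at KO day 5 and 23.0 and 14.5 in the controls. Neither KO group passed the test for CAMK2D (edgeR adjusted p = 0.437 at day 3 and 0.118 at day 5). It passed at day 5 without control replicate 1, in the higher direction (log2 fold change 0.97, adjusted p = 0.0317). The knockout could therefore not be read from CAMK2D mRNA, and KO below is the label of the library.

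The promoters of the members are shown because the class I genes share an upstream module through which NLRC5, interferon and NF-kB factors are known to act. The reference sequences are from RefSeq (GRCh38.p14) and are not those of this cell line. Each is the 180 bases before the annotated start, 5′ to 3′ on the strand of the gene, and 7 of the 9 members were matched. TAP1 has 2 annotated starts, of which the first is shown. Capitals mark matches, on both strands, to an interferon response motif (AANNGAAA), a kB motif (GGGNNNNNCC), a CRE core (TGACG) and CCAAT. The windows are chr6:31357180-31357359 (minus strand) for HLA-B, chr6:31272093-31272272 (minus) for HLA-C, chr6:29723254-29723433 (plus) for HLA-F, chr15:44711337-44711516 (plus) for B2M, chr6:32853705-32853884 (minus) for the first start of TAP1, chr6:32838740-32838919 (minus) for TAP2 and chr6:33314079-33314258 (minus) for TAPBP.
HLA-B: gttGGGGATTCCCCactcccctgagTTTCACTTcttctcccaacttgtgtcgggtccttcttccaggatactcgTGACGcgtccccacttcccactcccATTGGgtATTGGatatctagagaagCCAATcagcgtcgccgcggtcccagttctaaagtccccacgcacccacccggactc
HLA-C: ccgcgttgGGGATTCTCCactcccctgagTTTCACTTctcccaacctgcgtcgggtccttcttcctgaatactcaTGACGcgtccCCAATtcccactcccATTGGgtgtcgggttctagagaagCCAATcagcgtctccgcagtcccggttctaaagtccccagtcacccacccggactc
HLA-F: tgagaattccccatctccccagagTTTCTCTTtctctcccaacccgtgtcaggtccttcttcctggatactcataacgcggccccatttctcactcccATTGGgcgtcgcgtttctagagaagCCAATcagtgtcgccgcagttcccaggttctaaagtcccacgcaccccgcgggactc
B2M: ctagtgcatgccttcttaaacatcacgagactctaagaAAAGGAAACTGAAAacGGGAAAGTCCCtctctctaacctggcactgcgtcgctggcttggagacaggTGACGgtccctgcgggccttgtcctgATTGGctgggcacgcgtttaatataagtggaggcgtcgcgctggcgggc
TAP1: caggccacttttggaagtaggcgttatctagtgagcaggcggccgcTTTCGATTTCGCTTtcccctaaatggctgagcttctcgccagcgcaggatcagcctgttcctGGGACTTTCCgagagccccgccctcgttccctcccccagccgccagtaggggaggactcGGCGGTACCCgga
TAP2: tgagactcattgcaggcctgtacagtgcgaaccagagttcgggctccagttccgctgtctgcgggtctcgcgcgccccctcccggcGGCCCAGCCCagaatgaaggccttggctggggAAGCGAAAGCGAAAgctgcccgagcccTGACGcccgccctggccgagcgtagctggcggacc
TAPBP: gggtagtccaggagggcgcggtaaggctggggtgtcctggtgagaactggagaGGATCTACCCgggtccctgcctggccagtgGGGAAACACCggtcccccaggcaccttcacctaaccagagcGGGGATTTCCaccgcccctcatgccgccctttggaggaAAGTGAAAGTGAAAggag
An interferon response motif was found in all 7 windows shown, against 14.4% of 35116 promoter windows of that length. The second start of TAP1 held none. CRE cores were found in HLA-B, HLA-C, B2M and TAP2 (17.3% of all windows). The windows of HLA-B and HLA-C held 3 CCAAT matches each, HLA-F held 2 and B2M held 1, while those of TAP1, TAP2 and TAPBP held none (26.2% of all windows have at least 1). A kB match was found in each window except that of HLA-F (47.2% of all windows). Interferon motif matches overlapped each other in B2M, TAP1, TAP2 and TAPBP, and kB matches overlapped each other in HLA-B and B2M. No matches of different motifs overlapped. A match is a string of letters and does not show binding.

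At KO day 3 the light chain B2M and both transporter subunits, TAP1 and TAP2, rose, and no member passed the test in the lower direction. At KO day 5 the same 3 genes rose and TAPBP fell. TAP1 rose 2.27-fold at day 3 and 2.34-fold at day 5, TAP2 2.19-fold and 1.92-fold, and B2M 1.61-fold at each day. The heavy chains HLA-B, HLA-C, HLA-E and HLA-F and the transactivator NLRC5 did not pass the test at either day. The test was edgeR's quasi-likelihood test over 14601 genes with Benjamini-Hochberg adjustment and a threshold of 0.05. At day 3 it called 3 of 9 members higher and 0 lower, against 5.72% of all tested genes called higher and 5.99% called lower. The day 5 calls were 3 higher and 1 lower, against 7.44% higher and 7.05% lower. The median log2 fold change of the members was 0.69 at day 3 and 0.68 at day 5, where all tested genes had medians of 0 and 0.015. The medians of the members include HLA-F (3.78 and 2.69), which passed the filter on low counts through KO libraries. Its inclusion was therefore not independent of its level. The day 3 and day 5 comparisons share the control libraries. In bulk RNA, fewer cells of a type and less RNA per cell cannot be told apart.

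**Figure D1:**
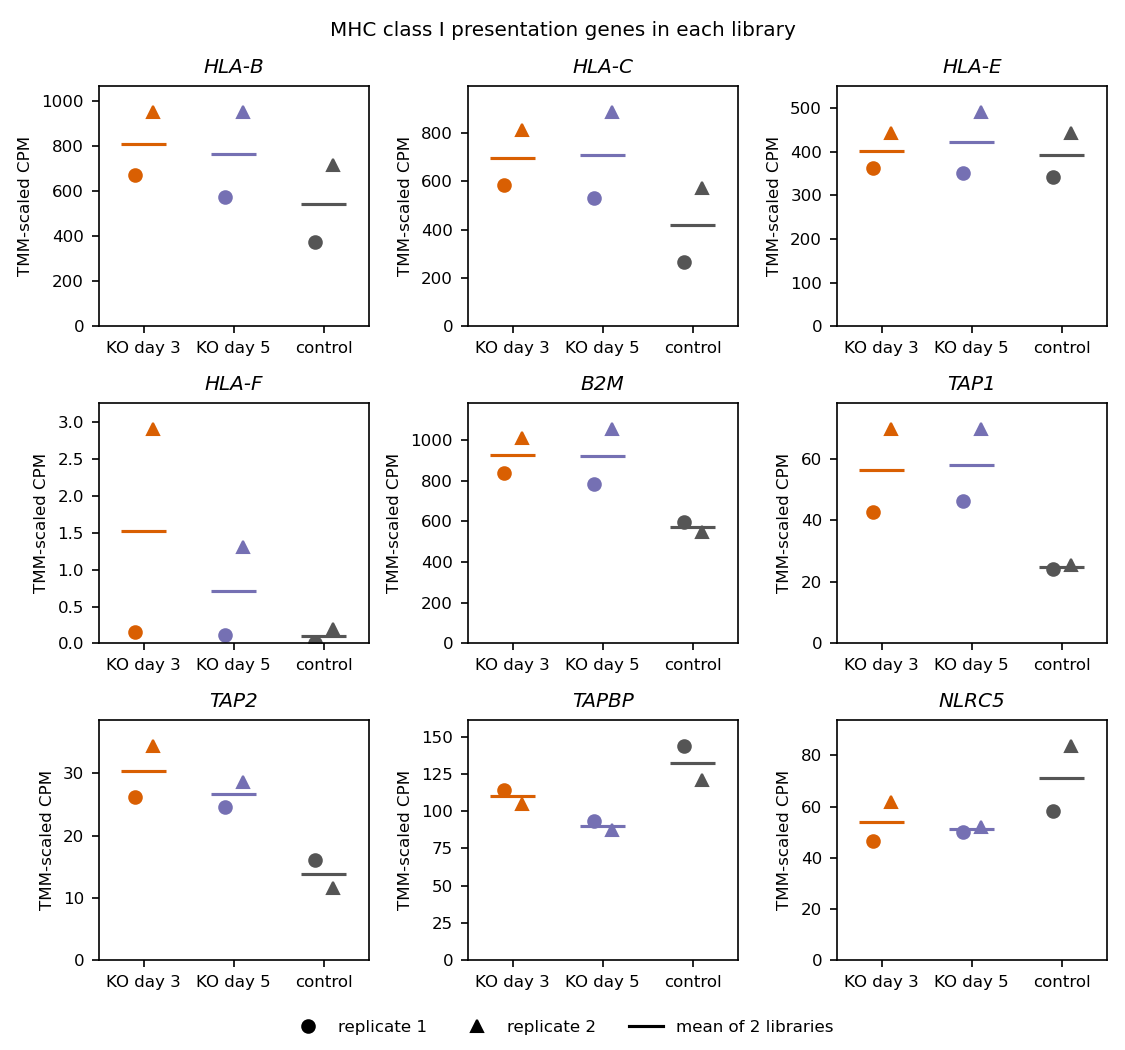
Level of each member in each library, in TMM-scaled CPM (linear axes from 0), for KO day 3, KO day 5 and control. Circles are replicate 1, triangles replicate 2 and lines the mean of 2 libraries. The B2M, TAP1 and TAP2 points of both KO groups lie above both controls, and the TAPBP points lie below them.

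Among the heavy chains, HLA-B (ENSG00000234745, chr6:31269491-31357188, minus strand, GRCh38) had 668.7 and 950.2 CPM at KO day 3, 574.8 and 950.2 at KO day 5 and 373.0 and 712.8 in the controls. Control replicate 2 lay above replicate 1 of either KO group, so the groups overlapped. The log2 fold change was 0.58 (edgeR adjusted p = 0.399, SE 0.40) at day 3, with a 95% interval of -0.42 to 1.57, and 0.49 (SE 0.40, adjusted p = 0.465) at day 5. HLA-C (ENSG00000204525, chr6:31268749-31272130, minus strand) had 583.9 and 812.5 CPM at KO day 3, 531.9 and 888.2 at KO day 5 and 264.7 and 570.7 in the controls. Both KO day 3 libraries lay above both controls, and KO day 5 replicate 1 lay below control replicate 2. Its log2 fold change was 0.74 (SE 0.45, adjusted p = 0.344) at day 3 and 0.77 (SE 0.45, adjusted p = 0.318) at day 5. The annotated span of HLA-B runs over HLA-C, and their exons share 35 bases. The HLA genes are related in sequence and reads could be split among them, so their values are uncertain.

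HLA-E, whose product presents leader peptides of other class I chains to CD94/NKG2 receptors of NK cells, did not pass the test at either day. It lies at chr6:30489467-30494205 on the plus strand (ENSG00000204592). HLA-E had 362.3 and 441.7 CPM at KO day 3, 351.0 and 491.0 at KO day 5 and 341.6 and 442.8 in the controls. In each group replicate 2 was the higher, and the 3 groups overlapped. The log2 fold change was 0.04 (edgeR adjusted p = 0.934, SE 0.20) at day 3 and 0.10 (SE 0.20, adjusted p = 0.779) at day 5. The 95% intervals, -0.43 to 0.51 and -0.37 to 0.57, leave room for a change of either sign.

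HLA-F, a chain that can reach the surface without peptide, was near the detection limit. Its locus is chr6:29722775-29738528 on the plus strand (ENSG00000204642). Its raw counts were 3 and 53 at KO day 3, 2 and 24 at KO day 5 and 0 and 4 in the controls. Only the replicate 2 libraries of the KO groups held more than 4 counts, and HLA-F passed the low-count filter through them, so its inclusion was not independent of its level. In control replicate 1 a count of 0 allows up to 0.193 CPM (3 counts), which covers counting error only. The estimated log2 fold changes were 3.78 (edgeR adjusted p = 0.217, SE 1.81) and 2.69 (SE 1.83, adjusted p = 0.368). Without a low-count filter the day 3 value passed the threshold (adjusted p = 0.00891). HLA-F shares 535 exon bases with HLA-F-AS1, and the library kit is not stated to keep strand, so their reads cannot be told apart.

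B2M, the light chain without which classical class I chains do not stay at the surface, rose at both days. The gene (ENSG00000166710) lies at chr15:44711487-44718877 on the plus strand, outside the MHC region. B2M had 835.2 and 1012 CPM at KO day 3, 783.2 and 1055 at KO day 5 and 595.7 and 548.8 in the controls. Every KO library lay above both controls, whose values were close together. The means were 924 ± 125, 919 ± 192 and 572 ± 33.2 CPM (SD, n = 2 each) at KO day 3, KO day 5 and in the controls. The log2 fold change was 0.69 (edgeR adjusted p = 0.038, SE 0.17) at day 3 and 0.68 (SE 0.17, adjusted p = 0.0342) at day 5. At day 3 B2M missed the threshold without either control (adjusted p = 0.0912 for replicate 1 and 0.0984 for replicate 2) or either KO day 3 library (0.0881 for replicate 1 and 0.221 for replicate 2). The day 5 call was lost without either control (adjusted p = 0.0808 for replicate 1 and 0.12 for replicate 2), either KO day 3 library (0.0576 for replicate 1 and 0.0555 for replicate 2) or KO day 5 replicate 2 (0.17).

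TAP1, the transporter subunit whose gene abuts that of the immunoproteasome subunit PSMB9, had the largest fold change among the called members. It lies at chr6:32845209-32853978 on the minus strand (ENSG00000168394). TAP1 had 42.6 and 69.8 CPM at KO day 3, 46.3 and 69.8 at KO day 5 and 24.2 and 25.4 in the controls. Both replicate 2 libraries of the KO groups stood at the same level, and every KO library lay above the controls. The log2 fold change was 1.18 (edgeR adjusted p = 0.0377, SE 0.28) at day 3 and 1.23 (SE 0.28, adjusted p = 0.0293) at day 5. TAP1 missed the threshold at day 3 without either control (adjusted p = 0.215 for replicate 1 and 0.151 for replicate 2) or KO day 3 replicate 2 (0.16). The day 5 call of TAP1 was lost without either control (adjusted p = 0.176 for replicate 1 and 0.148 for replicate 2) or KO day 5 replicate 2 (0.124). Of the exon length of TAP1, 9.49% is shared with PSMB8-AS1, whose reads cannot be told apart from its own.

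TAP2, the partner of TAP1 in the transporter, also rose at both days. It lies at chr6:32821833-32838780 on the minus strand (ENSG00000204267). TAP2 had 26.2 and 34.4 CPM at KO day 3, 24.6 and 28.6 at KO day 5 and 16.1 and 11.55 in the controls. The lowest KO library lay above the highest control at each day. The log2 fold change was 1.13 (edgeR adjusted p = 0.0203, SE 0.23) at day 3 and 0.94 (SE 0.23, adjusted p = 0.0311) at day 5. TAP2 missed the threshold at day 3 without either KO day 3 library (adjusted p = 0.0518 for replicate 1 and 0.124 for replicate 2). The day 5 call of TAP2 was lost without control replicate 2 (adjusted p = 0.108) or either KO day 5 library (0.0706 for replicate 1 and 0.133 for replicate 2). TAP2 shares 32.3% of its exon length with AL669918.1, which had 3 counts in all.

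TAPBP, the tapasin that holds the empty chain at the transporter, fell at day 5 while the transporter subunits rose. It lies at chr6:33299694-33314387 on the minus strand (ENSG00000231925). TAPBP had 114.4 and 105.0 CPM at KO day 3, 93.2 and 87.3 at KO day 5 and 143.8 and 121.0 in the controls. Both KO groups lay below both controls, and the KO day 5 libraries lay below those of day 3. At day 3 the log2 fold change of -0.27 (edgeR adjusted p = 0.217, SE 0.13) did not pass the threshold. At day 5 TAPBP fell by 0.55 on the log2 scale (SE 0.13, adjusted p = 0.0305), to 0.682 of the control level. The day 5 call was lost without control replicate 1 (adjusted p = 0.0826), either KO day 3 library (0.0576 for replicate 1 and 0.0546 for replicate 2) or either KO day 5 library (0.0876 for replicate 1 and 0.148 for replicate 2).

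NLRC5, the transactivator of the class I genes, did not pass the test in either direction. It lies at chr16:56989485-57083531 on the plus strand (ENSG00000140853). NLRC5 had 46.55 and 61.7 CPM at KO day 3, 50.1 and 52.2 at KO day 5 and 58.2 and 83.7 in the controls. Both KO day 5 libraries lay below both controls, whereas KO day 3 replicate 2 lay between them. The log2 fold change was -0.39 (edgeR adjusted p = 0.251, SE 0.21) at day 3 and -0.47 (SE 0.21, adjusted p = 0.164) at day 5. Without control replicate 1, the lower of the controls, the day 5 value was -0.72 and passed (adjusted p = 0.042), and without a low-count filter it was -0.52 (adjusted p = 0.0177).

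**Figure D2:**
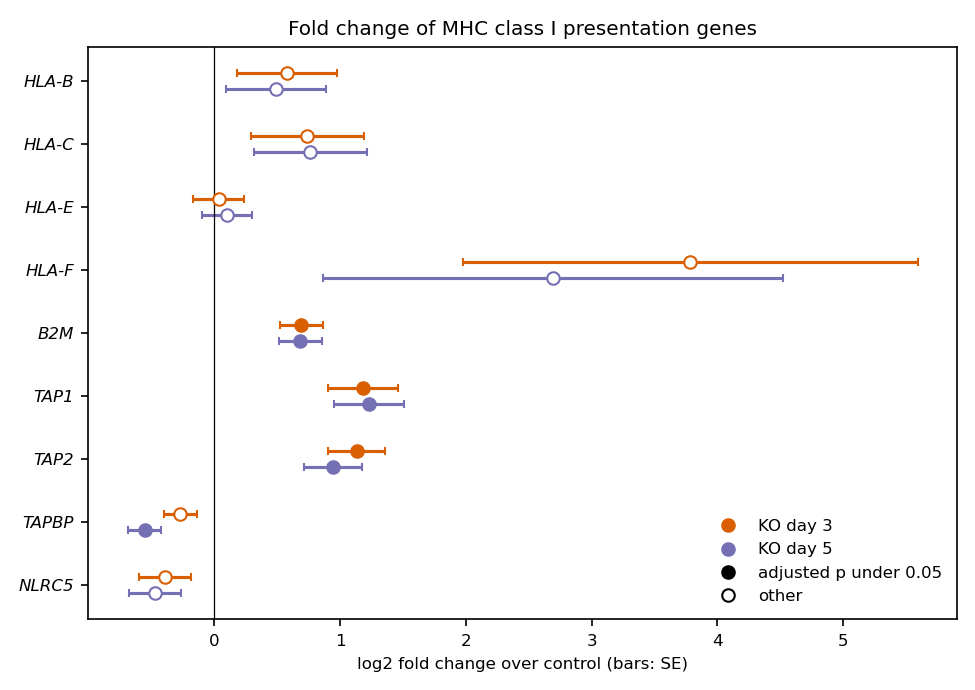
Log2 fold change over control of each member at KO day 3 and KO day 5, from the edgeR fit of all 6 libraries, with bars of 1 SE. Filled points have an adjusted p under 0.05: B2M, TAP1 and TAP2 at both days, on the side above 0, and TAPBP at day 5, below 0.

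Libraries that did not overlap with the controls were common among all genes. At day 3, 4 members lay wholly above the controls (HLA-C, B2M, TAP1 and TAP2) and 1 wholly below (TAPBP), against 30.3% and 30.1% of all tested genes. At day 5, 3 lay above (B2M, TAP1 and TAP2) and 2 below (TAPBP and NLRC5), against 29.6% and 28.4%. Between the KO days edgeR called 0 of 9 members, and 0 had an unadjusted p under 0.05 or were called by DESeq2. Of all tested genes, 8.55% were higher and 6.55% lower at an unadjusted p under 0.05, and DESeq2 called 2.04% higher and 1.94% lower among those it gave an adjusted p. The background there was 0.0274% of tested genes called higher at day 5, 4 in all, and 0% called lower. The smallest unadjusted p among the members was 0.0651, for TAPBP, at a log2 difference of -0.28 between day 5 and day 3. TAPBP was also the member whose KO day 5 and KO day 3 libraries did not overlap, against 23.8% of tested genes wholly lower at day 5 and 25.5% wholly higher.

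The replicates of each group differed in the same direction for most members. Replicate 2 over replicate 1 was 1.42 at KO day 3, 1.65 at KO day 5 and 1.91 in the controls for HLA-B, and 1.39, 1.67 and 2.16 in the same order for HLA-C. For HLA-E the ratios were 1.22, 1.4 and 1.3. Replicate 2 was above replicate 1 in all 3 groups for 6 members (these 3, HLA-F, TAP1 and NLRC5), which 20.2% of all tested genes also showed. Replicate 2 was below it in all 3 for TAPBP, as in 20.3% of tested genes. B2M went the other way in the controls, at 1.21 and 1.35 at KO day 3 and day 5 and 0.921 in the controls, and so did TAP2, at 1.32 and 1.16 and 0.716. The library titles carry the letter A for replicate 1 and B for replicate 2, and what the letters stand for is not stated.

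On the per-length scale of the deposited FPKM values (fragments scaled by length and depth), HLA-C and HLA-B headed the order of the members. HLA-C averaged 271 ± 58.1 FPKM at KO day 3, 292 ± 108 at KO day 5 and 166 ± 84.1 in the controls (SD, n = 2 each). HLA-B averaged 258 ± 59.1, 257 ± 93.4 and 177 ± 76.4, and the libraries of HLA-B and HLA-C overlapped in each group. That overlap does not compare the 2 genes within a library. There HLA-C over HLA-B was 1.063 and 1.041 at KO day 3, 1.126 and 1.138 at KO day 5 and 0.864 and 0.974 in the controls. B2M averaged 148 ± 17.5, 155 ± 34.9 and 94.0 ± 6.62 FPKM, and HLA-E 131 ± 16.1, 146 ± 36.5 and 131 ± 22.4, and these neighbours also overlapped except in the controls, where HLA-E lay above B2M. In the controls the libraries of HLA-B and HLA-C also overlapped those of HLA-E. TAPBP followed with 21.1 ± 1.64, 18.3 ± 0.551 and 26.2 ± 3.51 FPKM. TAP1 averaged 11.3 ± 3.7, 12.4 ± 3.74 and 5.14 ± 0.113 FPKM. In the controls TAP1 lay within the spread of NLRC5, which averaged 4.25 ± 0.771, 4.24 ± 0.186 and 5.71 ± 1.38, while in the KO groups it lay above it. TAP2 averaged 4.61 ± 0.809, 4.27 ± 0.523 and 2.17 ± 0.532, close to NLRC5 in the KO groups and below it in the controls. HLA-F was lowest, at 0.34 ± 0.431, 0.17 ± 0.203 and 0.0218 ± 0.0309 FPKM. The lengths behind these values are summed exon lengths, so a gene with long, seldom used exons is understated.

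Ratios within a library, which do not depend on its scaling, showed which members moved apart. HLA-C over HLA-B was 1.063 and 1.041 at KO day 3, 1.126 and 1.138 at KO day 5 and 0.864 and 0.974 in the controls. TAP1 over TAPBP was 0.392 and 0.699 at KO day 3, 0.523 and 0.841 at KO day 5 and 0.177 and 0.221 in the controls. TAP1 over NLRC5 was 2.358 and 2.913 at KO day 3, 2.38 and 3.447 at KO day 5 and 1.07 and 0.781 in the controls. For each of these 3 ratios every KO library lay above both controls. So did TAP1 over B2M, at 0.065 and 0.087 at KO day 3, 0.075 and 0.084 at KO day 5 and 0.051 and 0.058 in the controls. HLA-E over HLA-B lay below both controls in every KO library. It was 0.556 and 0.477 at KO day 3, 0.626 and 0.53 at KO day 5 and 0.939 and 0.637 in the controls. TAP1 over TAP2, the pair of transporter subunits, overlapped between the groups, at 2.164 and 2.696 at KO day 3, 2.507 and 3.247 at KO day 5 and 1.992 and 2.919 in the controls. HLA-B over B2M was 1.595 and 1.871 at KO day 3, 1.462 and 1.795 at KO day 5 and 1.248 and 2.588 in the controls, so the controls spanned all KO values. These ratios are a description, with no test, and show unequal change but not which gene of a pair changed.

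**Figure D3:**
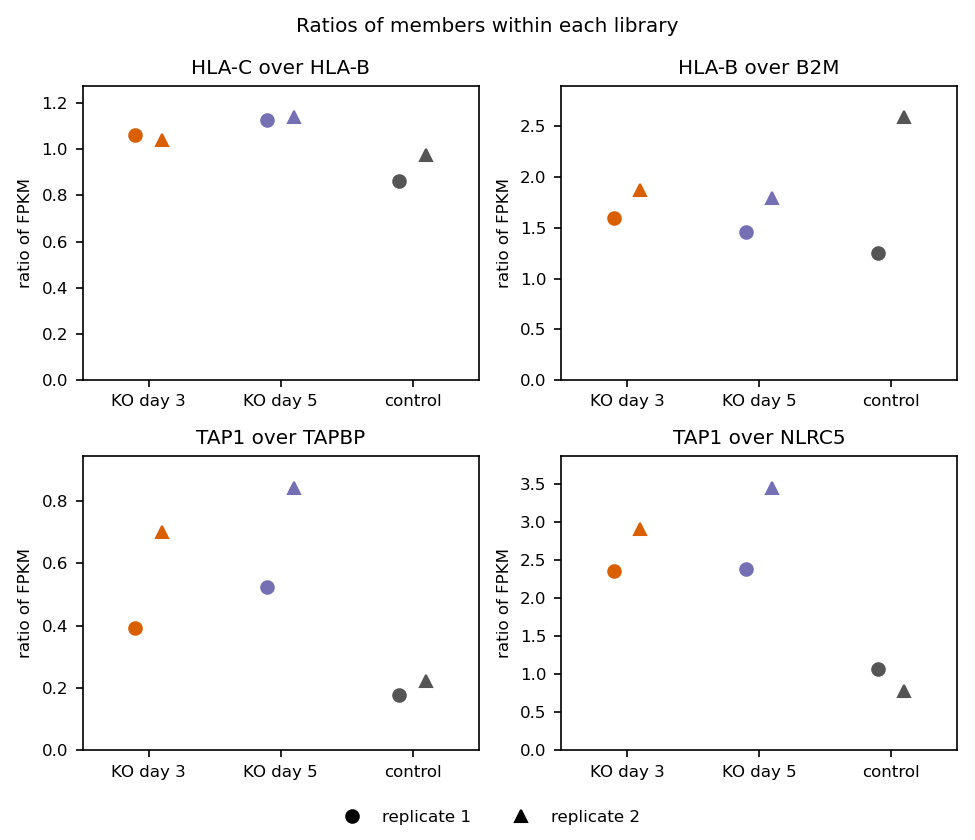
Ratios of deposited FPKM values within each library for 4 pairs of members, on linear axes from 0, with KO day 3, KO day 5 and control from left to right. Circles are replicate 1 and triangles replicate 2. TAP1 over TAPBP and TAP1 over NLRC5 lie above both controls in every KO library, while HLA-B over B2M of the controls spans 1.248 to 2.588.

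The other genes of the pathway were taken from lists chosen with earlier results of these data known, and each list is described by counts and a median only. The counts stand against 5.72% of all tested genes called higher and 5.99% called lower by edgeR at day 3, and 7.44% and 7.05% at day 5. At an unadjusted p under 0.05 the shares were 14.4% higher and 14.5% lower at day 3, and 16.1% higher and 14.8% lower at day 5. DESeq2 called 9.61% higher and 9.98% lower at day 3, and 10.4% higher and 10.8% lower at day 5, among genes it gave an adjusted p. Of 6 peptide trimming and loading genes, 1 rose at each day and 0 fell, with median log2 fold changes of 0.26 at day 3 and 0.31 at day 5. That gene was CANX (calnexin), the chaperone of newly made heavy chains, with 1042 and 927.8 CPM at KO day 3, 1220 and 1078 at KO day 5 and 692.9 and 599.2 in the controls. Every KO library lay above the controls, and the log2 fold change was 0.61 (edgeR adjusted p = 0.0275, SE 0.13) at day 3 and 0.83 (SE 0.14, adjusted p = 0.00843) at day 5. The day 3 call was lost without either KO day 3 library (adjusted p = 0.202 for replicate 1 and 0.109 for replicate 2). PDIA3, the thiol oxidoreductase of the loading complex, had log2 fold changes of 0.27 and 0.33, and ERAP2, which trims peptide ends, -0.24 and 0.38, none past the threshold.

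Of 5 immunoproteasome and PA28 genes, 2 rose at day 3 and 1 at day 5, with median log2 fold changes of 0.75 and 0.57. PSMB9, the inducible catalytic subunit encoded beside TAP1, had 58.6 and 69.4 CPM at KO day 3, 57.4 and 76.5 at KO day 5 and 15.03 and 27.4 in the controls. All 4 KO libraries lay above both controls, and the log2 fold change was 1.59 (edgeR adjusted p = 0.0192, SE 0.29) at day 3 and 1.65 (SE 0.29, adjusted p = 0.0144) at day 5. PSMB9 missed the threshold at day 3 without either KO day 3 library (adjusted p = 0.0589 for replicate 1 and 0.0803 for replicate 2) and at day 5 without KO day 5 replicate 2 (0.0651). PSME2, a subunit of the PA28 activator, had 143.6 and 163.3 CPM at KO day 3, 126.2 and 144.4 at KO day 5 and 73.8 and 108.0 in the controls. Its KO libraries also lay above both controls, at log2 fold changes of 0.75 (SE 0.19, adjusted p = 0.0407) at day 3 and 0.57 (SE 0.19, adjusted p = 0.0815) at day 5. The day 3 call of PSME2 was lost without control replicate 1 (adjusted p = 0.0833), either KO day 3 library (0.105 for replicate 1 and 0.183 for replicate 2) or either KO day 5 library (0.0537 for replicate 1 and 0.0536 for replicate 2). PSMB8, another inducible catalytic subunit, had log2 fold changes of 0.60 (adjusted p = 0.0684) and 0.41 (adjusted p = 0.162). Without control replicate 2, PSMB8 passed at both days (adjusted p = 0.0114 and 0.0354) and PSME2 passed at day 5 (0.0105). DESeq2 called 4 of the 5 genes higher at day 3 and 2 at day 5.

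The 3 constitutive catalytic subunits, which the inducible ones replace, were counted beside them. Of these, 1 rose at day 3 and 0 at day 5, with medians of 0.56 and 0.36. At day 5 edgeR gave 1 of them an unadjusted p under 0.05 in the higher direction (16.1% of all tested genes), and DESeq2 called 0. PSMB7 had 151.2 and 162.8 CPM at KO day 3, 134.0 and 138.9 at KO day 5 and 97.8 and 114.5 in the controls. It stood above the controls in every KO library, with log2 fold changes of 0.56 (edgeR adjusted p = 0.0284, SE 0.13) and 0.36 (adjusted p = 0.0951). The day 3 call was lost without control replicate 1 (adjusted p = 0.0783) or either KO day 3 library (0.121 for replicate 1 and 0.181 for replicate 2). PSMB6 had log2 fold changes of 0.63 and 0.44 and PSMB5 of 0.01 and -0.31, none past the threshold. PSMB6 passed at both days without control replicate 2 (adjusted p = 0.0207 and 0.0375), and PSMB5 at day 5 without control replicate 1 (0.0344). TAP1 over PSMB9 in FPKM was 0.465 and 0.643 at KO day 3, 0.516 and 0.583 at KO day 5 and 1.027 and 0.592 in the controls. KO day 3 overlapped the controls, while both KO day 5 libraries lay below both controls, 1 of them narrowly (0.583 against 0.592).

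Of 13 factors known to act on class I promoters, edgeR called 0 at day 3, where 2 had an unadjusted p under 0.05 in the higher direction and 3 in the lower (14.4% and 14.5% of all tested genes), and DESeq2 called 0 higher and 1 lower. At day 5 edgeR called 1 higher and 1 lower. The medians were -0.04 and -0.03. IRF1, an activator that binds the interferon response motif, had 30.7 and 32.8 CPM at KO day 3, 33.9 and 46.9 at KO day 5 and 21.9 and 26.0 in the controls. It lay above the controls at both days, with log2 fold changes of 0.40 (edgeR adjusted p = 0.217) and 0.75 (SE 0.20, adjusted p = 0.0399). The day 5 call was lost without control replicate 1 (adjusted p = 0.124), KO day 3 replicate 1 or 2 (0.0742 each) or KO day 5 replicate 2 (0.212). NFKB1, the p50 precursor of NF-kB, had 72.9 and 67.3 CPM at KO day 3, 62.6 and 56.0 at KO day 5 and 95.5 and 86.8 in the controls. It lay below the controls at both days, with log2 fold changes of -0.38 (adjusted p = 0.1) and -0.62 (SE 0.13, adjusted p = 0.0203), the second lost without either KO day 5 library (0.0579 for replicate 1 and 0.12 for replicate 2). IRF2, a competitor of IRF1 at the same motif, had log2 fold changes of -0.67 (adjusted p = 0.0703, and 0.0356 without control replicate 2) at day 3 and -0.03 at day 5.

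**Figure D4:**
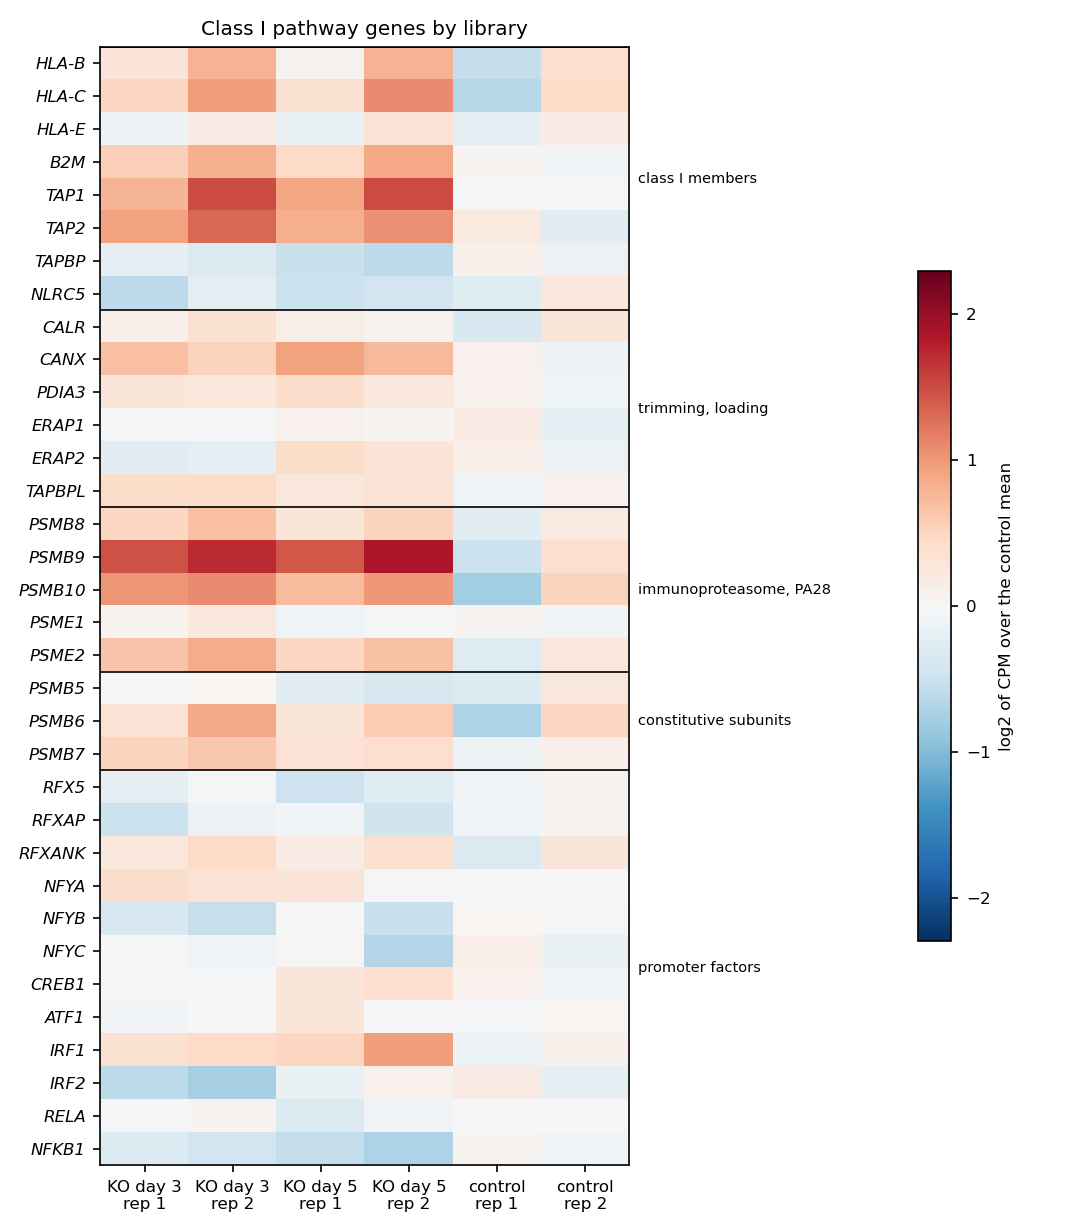
Log2 of the CPM of each gene in each library over its mean in the 2 controls, for 8 members and genes of 4 lists of the class I pathway. HLA-F is left out for its low counts. TAP1, TAP2 and PSMB9 are the genes of strongest colour, PSMB9 with 1.47 and 1.71 in the KO day 3 libraries. TAPBP, NLRC5 and NFKB1 are among the genes below the control mean in every KO library.

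Of 11 interferon receptor and signalling genes, 0 rose and 3 fell at day 3, and 1 rose and 1 fell at day 5, with medians of -0.25 and -0.01. SOCS1, the feedback inhibitor of JAK kinases, had 9.49 and 17.9 CPM at KO day 3, 18.6 and 29.3 at KO day 5 and 104.7 and 85.5 in the controls. SOCS1 fell by 2.80 on the log2 scale (edgeR adjusted p = 0.00725, SE 0.35) at day 3 and by 1.99 (SE 0.34, adjusted p = 0.0148) at day 5, with every KO library far below the controls. The day 5 call was lost without control replicate 1 (adjusted p = 0.0774) or KO day 5 replicate 1 (0.0621). JAK2, the kinase of the interferon-gamma receptor, had 11.5 and 13.4 CPM at KO day 3, 18.5 and 20.7 at KO day 5 and 10.3 and 9.35 in the controls. It had log2 fold changes of 0.35 (adjusted p = 0.312) and 0.999 (SE 0.21, adjusted p = 0.0189), the second lost without control replicate 2 (0.0655) or either KO day 5 library (0.0556 for replicate 1 and 0.0921 for replicate 2). TYK2, a kinase of the type I interferon receptor, had 192.5 and 197.1 CPM at KO day 3, 205.3 and 240.5 at KO day 5 and 274.9 and 306.6 in the controls. It lay below the controls throughout, with log2 fold changes of -0.58 (SE 0.13, adjusted p = 0.0269) and -0.38 (adjusted p = 0.0824). The day 3 call was lost without either KO day 3 library (adjusted p = 0.183 for replicate 1 and 0.169 for replicate 2). The third gene that fell at day 3 was JAK1, named after its values were seen, at -0.56 (SE 0.15, adjusted p = 0.0456). JAK1 missed the threshold without any library other than control replicate 2 (adjusted p = 0.148 without control replicate 1, 0.216 and 0.235 without KO day 3 replicates 1 and 2, 0.0657 and 0.0656 without KO day 5 replicates 1 and 2) and with upper-quartile factors (0.0501).

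Of 22 interferon-stimulated genes, edgeR called 3 higher at day 3 and 2 at day 5, and 0 lower. At day 3, 21 lay wholly above the controls and 1 wholly below, against 30.3% and 30.1% of all tested genes. At day 5, 18 lay wholly above and 0 below, against 29.6% and 28.4%. DESeq2 called 16 and 12 higher, against 9.61% and 10.4% of all genes it gave an adjusted p. The medians of 3.49 and 2.72 rest on estimates whose replicates stood far apart. IFIT1, OASL, OAS2 and IFI44L, named after their values were seen, had few raw counts in the controls. These were 3 and 12, 1 and 15, 0 and 10, and 0 and 0 in that order. The 4 genes passed the low-count filter through KO libraries, so their inclusion was not independent of their level. The counts and medians above include them. DHX58, a cytosolic RNA sensor of the RIG-I family, had 12.5 and 22.4 CPM at KO day 3, 7.41 and 16.0 at KO day 5 and 1.61 and 2.16 in the controls (edgeR adjusted p = 0.00892 and 0.0136). IFIT2, which binds foreign RNA, had 29.1 and 88.6 CPM at KO day 3, 28.6 and 58.9 at KO day 5 and 2.12 and 2.73 in the controls (adjusted p = 0.0268 and 0.0287). IFIT5 had 5.73 and 21.8 CPM at KO day 3, 6.74 and 10.9 at KO day 5 and 1.86 and 1.58 in the controls (adjusted p = 0.0343 and 0.0573). For all 3 genes the KO libraries lay above both controls, and replicate 2 was the higher in both KO groups, as for TAP1. DHX58 missed the threshold at day 3 without control replicate 1 (adjusted p = 0.0583) and at day 5 without either control (0.0795 for replicate 1 and 0.0515 for replicate 2). IFIT2 missed it without either control at day 3 (adjusted p = 0.258 for replicate 1 and 0.205 for replicate 2) and at day 5 (0.254 and 0.227), and at day 5 also without either KO day 5 library (0.0587 and 0.0888). Without a low-count filter IFIT2 missed it at both days (0.112 and 0.128). IFIT5 missed it at day 3 without either control (0.204 and 0.188), KO day 3 replicate 2 (0.0989) or either KO day 5 library (0.0638 and 0.0571), and passed at day 5 without either KO day 3 library (0.00726 and 0.0117).

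The MHC class II list, whose molecules present peptides to CD4 T cells, had 11 of 13 genes in the table and 5 passing the filter. At day 3 edgeR called 0, with 0 higher and 2 lower at an unadjusted p under 0.05 (14.4% and 14.5% of all tested genes), and DESeq2 called 0 higher and 2 lower. At day 5, 1 fell. The medians were -0.15 and -0.81. CD74, the invariant chain of class II molecules, had 98.7 and 127.7 CPM at KO day 3, 76.9 and 102.3 at KO day 5 and 166.3 and 187.3 in the controls. CD74 lay below the controls throughout, with log2 fold changes of -0.64 (edgeR adjusted p = 0.0578) and -0.98 (SE 0.18, adjusted p = 0.0136), the second lost without KO day 5 replicate 1 (0.0608). HLA-DMA, which edits class II peptides, had 0.782 and 2.03 CPM at KO day 3, 2.04 and 4.81 at KO day 5 and 5.14 and 6.86 in the controls. HLA-DMA did not pass at day 3 (log2 fold change -2.09, adjusted p = 0.0578) or at day 5 (-0.81, adjusted p = 0.37). At day 3 both genes passed without either KO day 5 library, with adjusted p of 0.0469 and 0.0475 for CD74 and 0.0398 and 0.0435 for HLA-DMA. CIITA, the class II transactivator related to NLRC5, had 1.93 and 2.25 CPM at KO day 3, 0.509 and 1.09 at KO day 5 and 1.16 and 2.21 in the controls, and did not pass (log2 fold changes 0.31 and -1.07).

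Of 6 tested NKG2D ligands, surface proteins by which NK cells recognise stressed cells, edgeR called 0 at day 3 (1 higher and 1 lower at an unadjusted p under 0.05, against 14.4% and 14.5% of all tested genes, and 1 higher and 0 lower by DESeq2). At day 5 it called 1 higher and 1 lower, and DESeq2 called 1 higher and 3 lower. The medians were -0.09 and -0.13. ULBP2 had 10.9 and 9.46 CPM at KO day 3, 14.7 and 17.7 at KO day 5 and 6.17 and 3.55 in the controls. Its KO libraries lay above both controls, with log2 fold changes of 1.07 (edgeR adjusted p = 0.0599) and 1.74 (SE 0.31, adjusted p = 0.0112), the second lost without KO day 5 replicate 2 (0.054). Without control replicate 1 the day 3 value passed (0.032). RAET1E, under 2 CPM in every library, fell at day 5 (log2 fold change -2.73, SE 0.74, adjusted p = 0.0437), a call lost without any 1 of the 6 libraries (adjusted p from 0.0753 to 0.232). The raw counts of RAET1E were 10 and 10 at KO day 3, 5 and 4 at KO day 5 and 23 and 40 in the controls. RAET1E passed the low-count filter through the controls, so its inclusion was not independent of its level. It is the 1 ligand that edgeR called lower at day 5. MICB had log2 fold changes of -0.36 and -0.54 (edgeR adjusted p = 0.0589 at day 5). At day 5 MICB passed with DESeq2 (adjusted p = 0.0222), at 5 CPM in 2 libraries (0.0434) and with limma on log2(FPKM + 1) and log2(FPKM + 0.1) with a filter (0.0443 and 0.0454).

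Of 8 tested genes for the turnover and quality control of class I chains, edgeR called 0 at either day. At an unadjusted p under 0.05 there were 0 at day 3 and 3 higher and 1 lower at day 5 (16.1% and 14.8% of all tested genes), and DESeq2 called 0 at both. The medians were 0.15 and 0.31, and DERL1, DERL2 and TXNDC11, which act in degradation or folding at the endoplasmic reticulum, did not pass.

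The mean profile of the members, each centred on its own log2 CPM, was -0.09 and 0.63 at KO day 3, -0.19 and 0.46 at KO day 5 and -0.61 and -0.21 in the controls. Replicate 2 was the higher in each group, and replicate 1 of each KO group lay close to control replicate 2. Without HLA-F, whose few counts are uneven, the profile was -0.002 and 0.364 at KO day 3, -0.084 and 0.31 at KO day 5 and -0.429 and -0.159 in the controls. Among protein-coding genes at a mean of at least 5 CPM, the 6 genes most like it over the 6 libraries were CHD1L (Pearson's r = 0.985), MTO1 (0.982), POLR3G (0.98), CASC10 (0.977), XAF1 (0.976) and STAT2 (0.975). Without HLA-F in the profile these correlations were 0.95 to 0.98. STAT2, which carries type I interferon signals, had 61.8 and 113.3 CPM at KO day 3, 62.3 and 105.7 at KO day 5 and 52.4 and 59.7 in the controls. XAF1, an interferon-induced gene, had 25.1 and 64.1 CPM at KO day 3, 23.3 and 64.7 at KO day 5 and 17.1 and 27.9 in the controls. The points of these correlations share libraries, groups and depth, and the genes were picked for their likeness out of all that were eligible, so the values are a description.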

How the data were processed

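Poly-A RNA of 6 MOLM-13 libraries was used. Per the file headers, the deposited table gives a raw read count and an FPKM value of each gene in each library. The submitters' processing notes name HISAT2, HTSeq 0.11.2, DESeq2 1.26.0 and GRCh38 without a role or order. Annotation, counting options and strand were not given in these sources. Each of the 24878 identifiers occurs in GENCODE release 29, used for coordinates, and the FPKM lengths of the members equal its summed exon lengths.

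The deposited counts were tested with edgeR 4.0.16 (R 4.3.3). The filterByExpr filter, at a minimum count of 10 and a total of 15, kept 14601 genes. TMM factors were 0.962 to 1.04. The robust quasi-likelihood fit had 3 groups, no block, 3 residual degrees of freedom and a prior with a median of 5.12. P-values were adjusted over all tested genes (Benjamini-Hochberg, threshold 0.05). A prior count of 0.125 enters the log2 fold changes, and SE is their size divided by the root of F. CPM are TMM-scaled. Likeness used log2 CPM with a prior count of 2. The fit was tested on simulated data.

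Replicate pairs were not repeat deposits (chi-square over degrees of freedom 17.4 at KO day 3, 23.3 at KO day 5, 37.7 in the controls). Alternatives comprised other scaling (relative log expression, upper quartile), no filter, 5 CPM in 2 libraries, DESeq2 1.42.0, only the 4 libraries compared, a block on replicate number, and each library left out. Limma 3.58.1 was run on log2(FPKM + 1) with and without a mean FPKM minimum of 0.5, and on log2(FPKM + 0.1) with it. The text names the members, CAMK2D, the 3 genes per list of lowest adjusted p, and the 6 most alike genes. Members, lists and rule were chosen with earlier results of these data known. Some genes of the lists are counted but not named or plotted here.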

Additional observations from a re-analysis of the deposited data

How the results depend on the processing

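No fold change that passed the test changed sign under any alternative, and no call of a member held under all of them. With relative log expression factors, every member and list count stayed within 1.5 times its first value. Genes called at day 3 (1710), day 5 (2117) and between the days (4) numbered 2925, 3234 and 599 without a low-count filter. DESeq2 called 2638 at day 3 and 435 between the days. With limma on log2(FPKM + 1) and on log2(FPKM + 0.1), 1 and 0 were called between the days, and without a filter 254, 605 and 0. Fitting only the 4 libraries compared gave 1315 at day 5. Leaving out each library gave 282 to 1906, 723 to 1874 and 1 to 15.

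Members called higher at day 3 (3) numbered 1 with limma at either pseudocount and 0 without a filter, and 0 to 3 with a library left out. At day 5 (3 higher, 1 lower) there were 0 higher and 0 lower with limma without a filter, 0 lower with limma at either pseudocount, 1 higher and 0 lower from the 4 libraries compared, 2 lower without a low-count filter, and 0 to 2 higher and 0 to 1 lower with a library left out. In the limma fits without a filter the adjusted p was 0.165 and 0.121 for B2M, 0.161 and 0.11 for TAP1 and 0.108 and 0.11 for TAP2 at days 3 and 5. HLA-E lay between -0.14 and 0.24 at day 3 and between -0.16 and 0.31 at day 5 with a library left out. HLA-F could not be fitted at 5 CPM in 2 libraries or in the filtered FPKM fits.

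Called genes per list moved as follows. Without a low-count filter, day 3 gave 4 immunoproteasome, 1 promoter factor, 6 interferon-stimulated, 2 class II and 1 NKG2D ligand genes. Day 5 gave 3 immunoproteasome, 5 signalling and 5 interferon-stimulated genes, and the days differed in 1 signalling and 2 interferon-stimulated genes. DESeq2 gave 4 immunoproteasome, 1 promoter factor, 16 interferon-stimulated, 2 class II and 1 NKG2D ligand genes at day 3. It gave 2, 12 and 4 for immunoproteasome, interferon-stimulated and NKG2D ligand genes at day 5, and 1 loading gene between the days. At 5 CPM in 2 libraries, 5 interferon-stimulated genes were called at day 3. Limma on either scale gave 0 loading and 1 immunoproteasome gene at day 3 and 1 promoter factor at day 5, and on log2(FPKM + 0.1) 5 interferon-stimulated genes at each day. Limma without a filter gave 0 loading, 0 immunoproteasome, 0 constitutive, 1 signalling and 0 interferon-stimulated genes at day 3. At day 5 it gave 0 immunoproteasome, 0 promoter factor, 0 signalling, 0 interferon-stimulated, 0 class II and 1 NKG2D ligand genes. The 4 libraries compared gave 1 immunoproteasome, 6 interferon-stimulated and 1 class II gene at day 3, and 1 promoter factor, 5 interferon-stimulated and 1 NKG2D ligand gene at day 5. With a library left out, the day 3 and day 5 counts were 0 to 2 and 1 to 1 for loading, 0 to 4 and 0 to 4 for immunoproteasome, 0 to 2 and 0 to 1 for constitutive, 0 to 2 and 0 to 3 for promoter factors, 1 to 3 and 0 to 2 for signalling, 0 to 6 and 0 to 6 for interferon-stimulated, 0 to 2 and 0 to 1 for class II and 0 to 1 and 0 to 1 for NKG2D ligand genes. The cause of these shifts was not tested.

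With the replicate number as a block, 4064, 4418 and 1117 genes were called at day 3, day 5 and between the days. Members were 6 higher and 1 lower at day 3, and 5 higher and 2 lower at day 5. Under the block HLA-B had 0.63 and 0.52 (edgeR adjusted p = 0.00109 and 0.00455), HLA-C 0.82 and 0.81 (0.00033 and 0.000313), HLA-F 3.86 at day 3 (0.0212), NLRC5 -0.39 and -0.45 (0.0441 and 0.0195), CAMK2D 0.63 at day 5 (0.0198) and MICB -0.54 at day 5 (0.0193). The block gave 4 immunoproteasome, 2 constitutive, 5 promoter factor, 6 signalling, 10 interferon-stimulated, 2 class II, 1 NKG2D ligand and 2 turnover genes at day 3. At day 5 it gave 2 loading, 4 immunoproteasome, 1 constitutive, 5 signalling, 8 interferon-stimulated, 4 NKG2D ligand and 3 turnover genes, and between the days 1 loading, 1 promoter factor and 2 interferon-stimulated genes. Deviations of same-numbered libraries correlated at 0.35 for KO day 3 and control, 0.3 for KO day 5 and control and 0.35 for the KO days. With 2 numbers per comparison and no stated meaning, the libraries were not treated as pairs, and whether they are was not settled.

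Each group has 2 libraries, which limits precision. Where 1 library remained in a group, its spread was taken from the other groups.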
